A study of Mus musculus with 9 samples.

Results

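The MYC, MAX and MXD family was described here in 3 mouse pluripotent lines. Its 10 members, Myc, Mycn, Mycl, Max, Mxd1, Mxd3, Mxd4, Mxi1, Mnt and Mga, were taken by gene symbol from the array annotation, with the brightest probe set of each gene. All 10 were found among 19938 genes with a probe set of their own, and each had 1 probe set. P19 NTES7 cells are pluripotent stem cells that were derived from P19 cells by nuclear transfer, through a cloned blastocyst, and they stand here for 1 cell line. P19 cells are embryonal carcinoma (EC) cells, the stem cells of a mouse teratocarcinoma. R1 cells are normal embryonic stem (ES) cells from an embryo of another mouse strain, so line and strain cannot be told apart in a comparison with R1. The labels give no mutation, transgene or drug for any line. Total RNA of 3 biological repeats of each line was measured on Affymetrix Gene 1.0 ST arrays. All lines were grown in the same ES medium with leukemia inhibitory factor (LIF). The methods give a layer of mitomycin-treated mouse embryonic fibroblasts for P19 NTES and other pluripotent stem cells and none for P19 cells, so feeder culture differed between P19 and both other lines. The series' design text says that feeder cells were cleared out, and how completely is not stated.

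MYC proteins are basic helix-loop-helix leucine zipper transcription factors. MYC, MYCN and MYCL each pair with MAX, bind the E-box sequence CACGTG and raise transcription of genes for growth, ribosome production and division. The MXD proteins, MXI1 and MNT pair with the same MAX, bind the same E-boxes and bring in SIN3 and histone deacetylases, which lower transcription. MGA is the largest partner of MAX. It carries a T-box domain as well and belongs, with MAX, to the noncanonical Polycomb complex PRC1.6, which keeps germ cell genes silent in mouse ES cells. Myc is a target of LIF and STAT3 signaling in these cells and was one of the factors first used to reprogram fibroblasts.

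The E-box is the sequence that joins these proteins, so the promoters that hold it are shown for the members and for the germ cell genes whose values are given further on. The windows run from 250 bases before to 50 bases after each annotated start (RefSeq, build GRCm38.p6). CACGTG, which reads the same on both strands, was in 2349 of 32851 windows, a share of 7.15%. Of the members, 9 genes had 11 windows, and 3 of these held an E-box (27.3%), those of Max, Mnt and Mxd4. The germ cell list held it in 13 of 21 windows (61.9%), the list of MYC-activated genes in 12 of 38 (31.6%) and the list of PRC1.6 genes in 1 of 12 (8.33%). Sequences are on the strand of the gene with the E-box in capitals. A match describes the letters and not a bound site.
Max (chr12:76962246-76962273, minus strand, E-box starting 3 bases before the annotated start): accccggcgcggtgagcccggtCACGTG
Mnt (chr11:74830779-74830818, plus strand, 123 bases before): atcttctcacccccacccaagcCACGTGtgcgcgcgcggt
Mxd4 (chr5:34187912-34187951, minus strand, 219 bases before): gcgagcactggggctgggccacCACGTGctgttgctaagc
Stag3 (chr5:138280317-138280356, plus strand, 170 bases before): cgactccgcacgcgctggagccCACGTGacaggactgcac
Ddx4 (chr13:112652322-112652361, minus strand, 29 bases before): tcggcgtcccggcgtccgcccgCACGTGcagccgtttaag
Hormad1, first E-box (chr3:95559598-95559637, plus strand, 57 bases before the nearer of its starts): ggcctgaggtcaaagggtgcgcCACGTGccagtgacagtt
Hormad1, second E-box (chr3:95559635-95559674, plus strand, 20 bases before the nearer of its starts): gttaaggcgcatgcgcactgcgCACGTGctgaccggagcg

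The other windows of the members, those of Mycn, Mycl, Mxd1, Mxd3, Mxi1 and Mga, did not hold these letters. Myc had no window in this set, so its promoter was not searched. The E2F core GCGGGA, searched on both strands, was in 5 of the 11 windows of the members (45.5%), in 11 of 21 of the germ cell list (52.4%) and in 7 of 12 of the PRC1.6 list (58.3%), against 20% of all windows. E-box and E2F core stood in the same window in 8 of the 21 germ cell windows (38.1%), against 1.99% of all windows.

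The values are RMA intensities on a linear scale, and 16.9 was the median of all values, which is called the array median below. A gene under it was in the dimmer part of the array, nearer to its floor, though not at it. Listed values went down to 6.51 (Tbx20 in P19 replicate 1). Levels are set against each other within a gene only, since probe sets differ in brightness. Differences are log2 differences from limma with all 9 arrays in the fit, and a gene passed the test at an adjusted p under 0.05 (Benjamini-Hochberg over 28853 probe sets). Folds given for a gene come from these log2 differences, so they can differ from the ratio of its printed mean intensities. The stricter limits of the study were a fold over 2 and a p under 0.01, here applied to the adjusted p. The labels call the 3 repeats biological and say no more of them, and a p-value covers the spread among those 3 only.

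The lines matched their labels in part. Pou5f1, the defining factor of pluripotent cells, was between 1265 and 2268 on all 9 arrays. The 10 pluripotency markers summed to 3315 to 3826 in P19 NTES7 cells, to 3932 to 4492 in P19 cells and to 7181 to 7745 in R1 cells, and 2 of them were below the array median in P19 cells. These sums follow the brightest probe sets. In P19 NTES7 and P19 cells that was Pou5f1, with means of 1471 and 2196. In R1 cells it was Dppa5a, with a mean of 2238 against 1470 for Pou5f1, while Dppa5a averaged 125.4 in P19 NTES7 and 19.5 in P19 cells. Gene by gene, 5 of the 10 were higher and 2 lower in P19 NTES7 minus P19 (median log2 difference 0.49), among them Nanog (1.82) and Dppa5a (2.68), while 1 was higher and 7 were lower in P19 NTES7 minus R1 (median -1.75). Of 24 markers of embryonic fibroblasts, the kind of cell used as feeder, 3 were below the array median in P19 NTES7 cells, 16 in P19 cells and 2 in R1 cells. Their sum was 1420 to 1732 in P19 NTES7 cells, 638.8 to 704.3 in P19 cells and 2070 to 2535 in R1 cells. Among pairs of arrays of a line, the log2 differences over probe sets had SDs of 0.168 to 0.293, except R1 replicates 1 and 2 with 0.125.

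The MYC genes themselves differed most among the members, and they did not move together. Myc and Mycn were highest in R1 cells, while Mycl was highest in P19 NTES7 cells and lowest in R1 cells. P19 NTES7 cells lay between P19 and R1 for Myc and outside them for Mycn and Mycl.

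**Figure D1:**
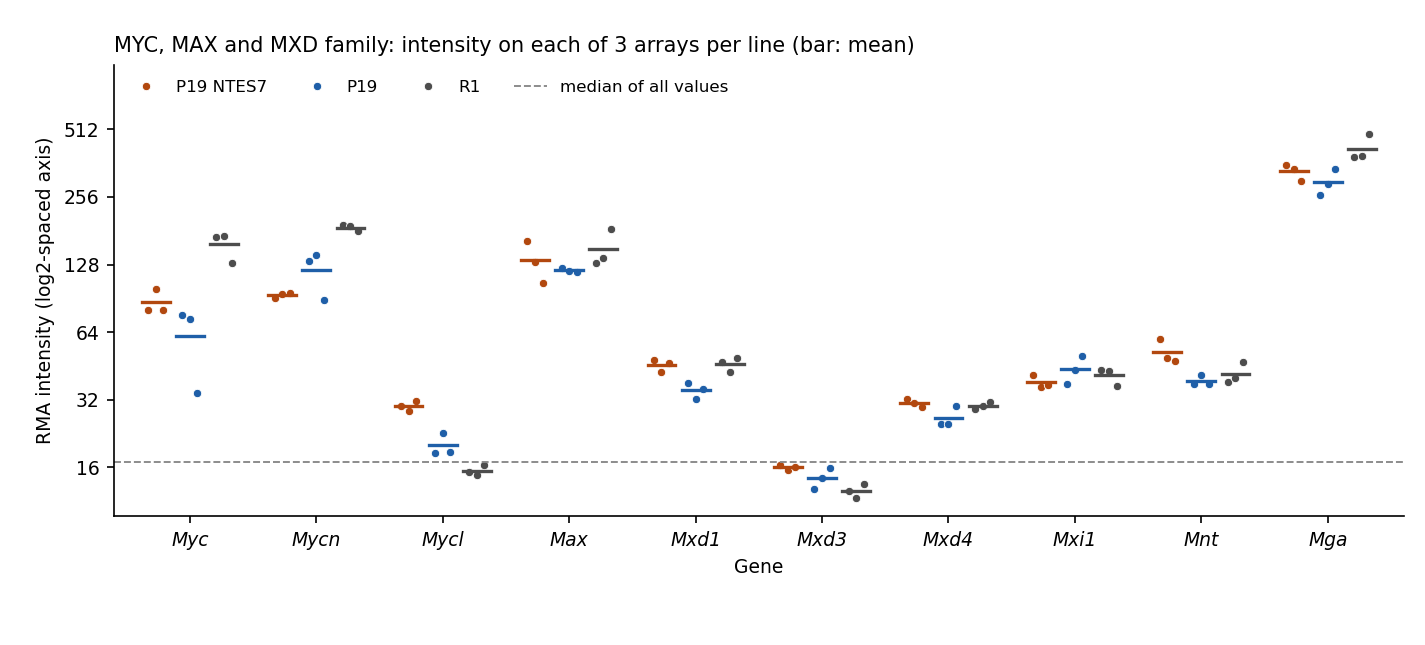
RMA intensity (log2-spaced axis) of the 10 members on the 3 arrays of P19 NTES7, P19 and R1 cells, with a bar at each mean and a dashed line at the array median of 16.9. Myc and Mycn sit highest in R1 cells, Mycl steps down from P19 NTES7 to P19 to R1 cells, and Mxd3 stays under the dashed line in all lines.

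Myc, the founding member and a direct driver of growth genes, had intensities of 80.7, 100.1 and 80.1 in P19 NTES7 cells, of 76.6, 73.1 and 34.1 in P19 cells and of 170.3, 171.9 and 130.3 in R1 cells. No array of a line overlapped with those of another line, and P19 replicate 3 stood well under its own line. Myc was 2.71-fold lower in P19 cells than in R1 cells, with means of 61.3 ± 23.6 in P19 cells and 157.5 ± 23.6 in R1 cells (SD, n = 3 each). This log2 difference was -1.44 ± 0.24 (SE, limma adjusted p = 0.000405). In P19 NTES7 cells Myc averaged 87.0 ± 11.4 (SD, n = 3) and was 1.81-fold lower than in R1 cells, with a log2 difference of -0.85 ± 0.24 (limma adjusted p = 0.0196). This did not pass without P19 NTES7 replicate 1 (limma adjusted p = 0.0688), P19 NTES7 replicate 3 (0.0714), R1 replicate 1 (0.0606) or R1 replicate 2 (0.0629). P19 NTES7 and P19 cells, which are neighbours in this order, did not differ beyond the test, with a log2 difference of 0.59 (95% interval 0.06 to 1.11, limma adjusted p = 0.122), which was 0.21 without P19 replicate 3. RNA from fewer cells with a high level and from less RNA in every cell cannot be told apart in these bulk samples. The sum of the fibroblast markers had the same order of lines as Myc, and as Max, Mxd1 and Mga described below, and its part in these results was not tested.

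Mycn, the paralog best known from neural progenitors and the early embryo, had 91.0, 94.2 and 95.8 in P19 NTES7 cells, 132.2, 141.4 and 88.9 in P19 cells and 192.0, 189.4 and 179.6 in R1 cells. All R1 arrays were above all others, and the 88.9 of P19 replicate 3 was below every P19 NTES7 array. Mycn was lower than in R1 cells in both other lines. The log2 difference was -0.997 ± 0.14 in P19 NTES7 cells (SE, limma adjusted p = 0.000158), a little under the 2-fold limit of the study, and -0.66 ± 0.14 in P19 cells (limma adjusted p = 0.00289). Between P19 NTES7 and P19 cells the log2 difference was -0.34 (95% interval -0.65 to -0.03, limma adjusted p = 0.132). Without P19 replicate 3 it was -0.55 (limma adjusted p = 0.00264), so 1 array decided whether Mycn passed there.

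Mycl, the least transforming of the MYC genes, ran the other way. It had 30.1, 28.5 and 31.6 in P19 NTES7 cells, 18.6, 22.8 and 18.7 in P19 cells and 15.2, 14.7 and 16.5 in R1 cells. The lines did not overlap, and all R1 arrays were under the array median. Mycl was 1.51-fold higher in P19 NTES7 than in P19 cells (log2 difference 0.59 ± 0.11, limma adjusted p = 0.00137) and 1.94-fold higher in P19 NTES7 than in R1 cells (0.96 ± 0.11, limma adjusted p = 1.55e-05). P19 cells were 1.29-fold higher than R1 cells, with a log2 difference of 0.37 ± 0.11 (limma adjusted p = 0.0161). This smallest step did not pass without P19 replicate 2 (limma adjusted p = 0.0949), R1 replicate 1 (0.0545) or R1 replicate 2 (0.0718). As R1 cells were under the array median, the fold changes against them may be understated.

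Max, the shared partner, passed no test. It had 163.4, 131.3 and 106.1 in P19 NTES7 cells, 123.4, 120.3 and 118.4 in P19 cells and 130.1, 136.4 and 183.9 in R1 cells. The 3 P19 NTES7 arrays spread more widely than the lines differed. The 95% interval of the log2 difference was -0.21 to 0.46 for P19 NTES7 minus P19, -0.51 to 0.17 for P19 NTES7 minus R1 and -0.64 to 0.04 for P19 minus R1.

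The antagonists of MYC showed smaller differences. Mxd1, which rises when many cell types stop dividing and differentiate, had 48.0, 42.7 and 46.8 in P19 NTES7 cells, 38.2, 32.1 and 35.7 in P19 cells and 47.1, 42.7 and 49.1 in R1 cells. P19 cells were below all arrays of the other lines. Mxd1 was higher in P19 NTES7 than in P19 cells by 0.38 ± 0.10 on the log2 scale (SE, limma adjusted p = 0.0198) and lower in P19 than in R1 cells by 0.39 ± 0.10 (limma adjusted p = 0.00938). P19 NTES7 and R1 cells, which overlapped, differed by -0.01 (95% interval -0.24 to 0.21). The difference between P19 NTES7 and P19 cells did not pass without P19 NTES7 replicate 1 (limma adjusted p = 0.0555), P19 NTES7 replicate 3 (0.0598) or P19 replicate 2 (0.106), and that between P19 and R1 cells did not pass without P19 replicate 2 (0.0565).

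Mnt, the broadly expressed antagonist that restrains MYC in dividing cells, had 59.4, 49.3 and 47.7 in P19 NTES7 cells, 37.8, 41.2 and 37.8 in P19 cells and 38.5, 40.1 and 47.0 in R1 cells. All P19 NTES7 arrays were above those of both other lines. Mnt was 1.33-fold higher in P19 NTES7 than in P19 cells (log2 difference 0.42 ± 0.11, limma adjusted p = 0.0201). Against R1 cells the log2 difference was 0.32 (95% interval 0.07 to 0.56, limma adjusted p = 0.0587), and P19 and R1 cells overlapped, with -0.10 (95% interval -0.35 to 0.14). The first of these did not pass without P19 NTES7 replicate 1 (limma adjusted p = 0.0702), P19 replicate 1 (0.072) or P19 replicate 3 (0.0594), and the second passed without P19 NTES7 replicate 3 (0.0489) or R1 replicate 3 (0.0173).

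Mxd3, an antagonist linked to dividing cells, was below the array median in all lines, with 16.3, 15.6 and 16.04 in P19 NTES7 cells, 12.8, 14.3 and 15.97 in P19 cells and 12.6, 11.7 and 13.5 in R1 cells. Its log2 difference of 0.34 ± 0.10 between P19 NTES7 and R1 cells passed (limma adjusted p = 0.0266), at a level in the dimmer part of the array. It did not pass without any 1 of the P19 NTES7 replicates (limma adjusted p = 0.0653, 0.0524 and 0.0608 without replicates 1, 2 and 3) or without R1 replicate 1 (0.074) or 2 (0.127). Mxd4 had 32.2, 30.9 and 29.9 in P19 NTES7 cells, 25.0, 25.0 and 29.9 in P19 cells and 29.1, 30.1 and 31.4 in R1 cells. Mxi1, a further antagonist, had 41.4, 36.5 and 37.1 in P19 NTES7 cells, 37.6, 43.3 and 50.3 in P19 cells and 43.5, 43.1 and 37.0 in R1 cells. Neither passed in any comparison, and their intervals farthest from 0 were those of P19 NTES7 minus P19, -0.44 to 0.08 for Mxi1 and 0.01 to 0.44 for Mxd4 (limma adjusted p = 0.352 and 0.156).

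Mga, the T-box partner of MAX, had 353.8, 341.4 and 302.3 in P19 NTES7 cells, 262.4, 292.8 and 339.2 in P19 cells and 385.2, 387.9 and 485.8 in R1 cells. R1 arrays were above all others. Mga was 1.41-fold lower in P19 than in R1 cells (log2 difference -0.49 ± 0.13, limma adjusted p = 0.00781). P19 NTES7 cells overlapped with P19 cells (0.16, 95% interval -0.11 to 0.43) and were at -0.33 against R1 cells (95% interval -0.60 to -0.06, limma adjusted p = 0.0731).

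**Figure D2:**
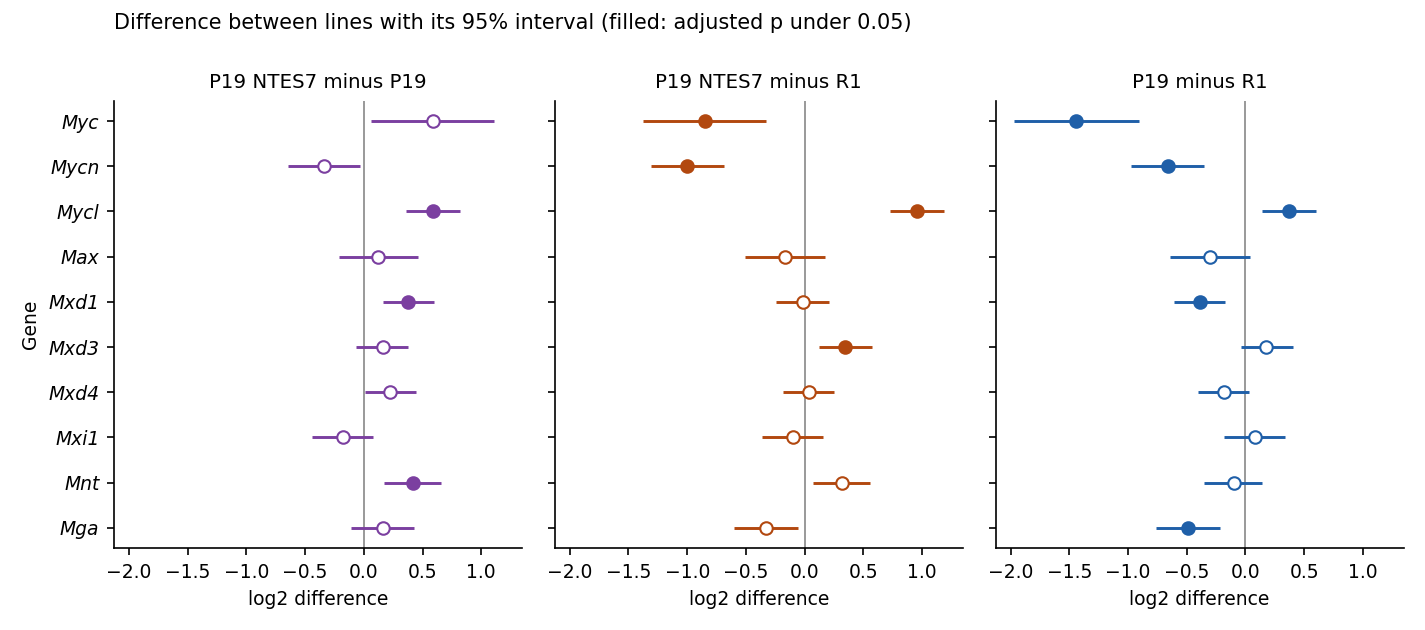
Log2 difference of each member (x axis) with its 95% interval in the comparisons P19 NTES7 minus P19, P19 NTES7 minus R1 and P19 minus R1, where filled points passed the test. Mycl is the 1 member that passed in all comparisons, and Myc in P19 minus R1, at -1.44, lies farthest from 0.

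Counted over the family, 3 of 10 members were higher in P19 NTES7 than in P19 cells and 0 were lower, where 8.33% of all genes were higher and 12% lower. Those were Mycl, Mxd1 and Mnt. Against R1 cells, 2 members were higher in P19 NTES7 cells (Mycl and Mxd3) and 2 lower (Myc and Mycn), where 14.1% of all genes were higher and 13.4% lower. In P19 against R1 cells, 1 was higher (Mycl) and 4 were lower (Myc, Mycn, Mxd1 and Mga), where 19.4% of all genes were higher and 15.2% lower. With so few members, these shares carry little beyond the genes named. Past the limits of the study were 0 members in P19 NTES7 minus P19, 0 in P19 NTES7 minus R1 and 1, Myc, in P19 minus R1, against 2.83%, 4.51% and 7.31% of all genes. At an unadjusted p under 0.05 limma gave 6, 6 and 5 of the 10 members in these comparisons. The share of all genes under that limit was not counted, so these counts cannot be set against it. The one-way analysis of variance of the study's methods also put 0 members past its limits in the first and second comparisons.

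P19 replicate 3 differed from its line in many genes, Myc and Mycn among them. Its Myc was 1.13 and its Mycn 0.62 on the log2 scale below the mean of the other 2 P19 arrays, where the SD over all genes was 0.21, while the other 8 members lay between -0.14 and 0.32. Of 39 MYC-activated genes, 29 had their lowest P19 value on this array (74.4%), against 37.5% of all genes, and their median stood at -0.17. Other lists stood low there too, as 9 of 10 pluripotency markers (90%) and 10 of 13 PRC1.6 genes (76.9%) had their lowest P19 value on this array. So did 7 of 10 corepressor genes (70%) and 9 of 13 MYC cofactors (69.2%). The highest P19 value fell on it for 15 of 24 fibroblast markers (62.5%), against 37.7% of all genes. The shift thus reached genes beyond the MYC targets, and its cause was not tested. Ndrg1, a gene that MYC represses and that also answers to low oxygen, had 362.6 on this array and 77.8 and 126.7 on the other P19 arrays. This is 1 array without a repeat, and Myc remained past the test in P19 minus R1 without it (log2 difference -1.06). Arrays of the other lines deviated as well, with SDs over all genes of 0.27 for R1 replicate 3 and 0.22 for P19 NTES7 replicate 1. On R1 replicate 3, 19 of 24 fibroblast markers had their highest R1 value (79.2%, against 40.4% of all genes). On P19 NTES7 replicate 1, 11 of 13 MYC cofactors had their highest value of that line (84.6%, against 36.1% of all genes). This array was the highest of its line for many genes of other lists too. These were 12 of 13 genes of signals to Myc (92.3%), 11 of 12 of MYC stability (91.7%) and 18 of 24 fibroblast markers (75%). They also included 11 of 15 MYC-repressed genes (73.3%) and 7 of 10 members (70%), while the germ cell list had 5 of 18 (27.8%).

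The partners of the family were followed through lists of genes by role, each count being set against the shares of all genes given above. In the MLX branch, which pairs with MNT and MXD proteins and senses glucose, Mlxip (MondoA) was the 1 of 3 genes that passed. It was higher than in R1 cells in both P19 NTES7 cells (log2 difference 0.55, limma adjusted p = 0.0295) and P19 cells (0.50, limma adjusted p = 0.0396), though 1 P19 NTES7 array, at 40.97, was below the highest R1 array, at 41.5. With R1 replicates 1 and 2 averaged as 1 array, Mlxip passed in neither (limma adjusted p = 0.09 and 0.112). Without 1 array, the first was lost without P19 NTES7 replicate 1 (0.112) or 3 (0.0635) or R1 replicate 1 (0.0967) or 2 (0.0878), and the second without P19 NTES7 replicate 3 (0.0531), P19 replicate 2 (0.124) or 3 (0.109) or R1 replicate 1 (0.122) or 2 (0.108). Mlxipl, the liver factor ChREBP, was below the array median in all lines.

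Of 10 genes of the SIN3 corepressor, through which MXD proteins and MNT act, 2 were higher and 1 was lower in P19 NTES7 than in P19 cells. The histone chaperone Rbbp7 had 441.6, 427.5 and 444.5 in P19 NTES7 cells and 261.5, 285.3 and 236.9 in P19 cells (log2 difference 0.75, limma adjusted p = 9.25e-05), and R1 cells, at 391.6 to 414.5, overlapped with neither of these. The deacetylase Hdac2 was lower by 0.56 (limma adjusted p = 0.00146). Rbbp4, the relative of Rbbp7, was higher by 0.32 (limma adjusted p = 0.0382), a call lost in 10 of 17 other settings, among them array centring (0.0908) and the fits without P19 NTES7 replicate 1 (0.0958) or 3 (0.0903), P19 replicate 2 (0.117) or 3 (0.128) and R1 replicate 1 (0.0572) or 2 (0.0621). Against R1 cells, 3 were higher and 1 lower in P19 NTES7 cells and 3 higher and 2 lower in P19 cells. The subunit Sap130 was higher in both, by 0.76 in P19 NTES7 and 0.77 in P19 cells, and Sap30, which stabilizes the complex, was lower in both, by 0.60 in P19 NTES7 and 0.44 in P19 cells.

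Of 13 measured cofactors of MYC, 12 did not pass between P19 NTES7 and P19 cells. The exception was Smarcb1, the SWI/SNF subunit that binds MYC, which was lower in P19 NTES7 cells, with 185.0, 149.1 and 154.4 in P19 NTES7 cells against 262.9, 242.6 and 244.8 in P19 cells (log2 difference -0.63, limma adjusted p = 0.000876). Against R1 cells, 1 was higher and 2 were lower in P19 NTES7 cells, and 4 were higher and 1 was lower in P19 cells. Wdr5, which anchors MYC on chromatin, had the lowest log2 difference of the list in both. It had 176.4, 156.5 and 167.9 in P19 NTES7 cells, 159.0, 179.2 and 156.9 in P19 cells and 308.5, 310.5 and 268.8 in R1 cells, with log2 differences from R1 of -0.82 and -0.84 (limma adjusted p = 4.13e-05 and 2.08e-05). The scaffold Trrap (0.48) and the acetyltransferase Kat2a (0.39) were higher in P19 than in R1 cells, and Kat2a did not pass without P19 replicate 1 (limma adjusted p = 0.0604), P19 replicate 2 (0.101) or R1 replicate 3 (0.0803).

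Among 12 measured enzymes that set the stability of MYC proteins, Pim1 stood apart. This kinase, a STAT3 target that phosphorylates MYC, had 145.3, 97.9 and 107.5 in P19 NTES7 cells, 51.6, 50.4 and 36.9 in P19 cells and 132.6, 145.0 and 125.4 in R1 cells. It was 2.52-fold higher in P19 NTES7 than in P19 cells (log2 difference 1.33, limma adjusted p = 4.79e-05) and 2.93-fold lower in P19 than in R1 cells (-1.55, limma adjusted p = 4.04e-06), while P19 NTES7 and R1 cells overlapped. Usp28, which removes ubiquitin from MYC, was lower in P19 NTES7 than in P19 cells by 0.77 and than in R1 cells by 0.66. Fbxw7, the ligase subunit that marks phosphorylated MYC for degradation, was lower than in R1 cells by 0.47 in P19 NTES7 and by 0.53 in P19 cells. In all, 1 was higher and 3 were lower in P19 NTES7 minus P19, 2 higher and 4 lower in P19 NTES7 minus R1, and 3 higher and 3 lower in P19 minus R1.

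The PRC1.6 partners of MGA and MAX included 13 genes. Against P19 cells, 0 were higher and 3 were lower in P19 NTES7 cells. Rnf2, the ubiquitin ligase of the complex, had 85.4, 96.9 and 101.0 in P19 NTES7 cells against 168.5, 171.6 and 153.7 in P19 cells (log2 difference -0.80, limma adjusted p = 0.000112), and E2f6, its E2F-type DNA-binding subunit, was lower by 0.58 (limma adjusted p = 0.00633). Against R1 cells, 1 was higher and 4 were lower in P19 NTES7 cells and 3 were higher and 4 lower in P19 cells. L3mbtl2, a subunit particular to this form of PRC1, had 184.6, 164.3 and 144.6 in P19 NTES7 cells, 176.0, 175.0 and 143.7 in P19 cells and 293.6, 301.1 and 311.6 in R1 cells, and was lower than in R1 cells by 0.88 in both (limma adjusted p = 6.52e-05 for P19 NTES7 and 4.25e-05 for P19). Pcgf6, the subunit that defines the complex, is named although it falls outside the rule for naming, and its values were seen first. It was lower than in R1 cells by 0.41 in P19 NTES7 and by 0.50 in P19 cells (limma adjusted p = 0.00635 and 0.00124). So Mga, L3mbtl2 and Pcgf6 had their highest values in R1 cells, but the list as a whole did not share this order. Its median log2 difference was 0.2 in P19 minus R1 and -0.05 in P19 NTES7 minus R1. E2f6 (0.58, limma adjusted p = 0.00327) and Yaf2 (0.45, limma adjusted p = 0.0172) were higher in P19 than in R1 cells. Yaf2 did not pass without P19 replicate 3 (0.0667) or R1 replicate 2 (0.0787).

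The germ cell genes that MGA, MAX and PRC1.6 hold silent were mostly highest in R1 cells. R1 cells had the highest mean in 14 of 18 genes, P19 cells had the lowest in 14, and P19 NTES7 cells lay between them in 12. Of the 18, 12 were lower and 1 was higher in P19 than in R1 cells, with a median log2 difference of -0.85 against -0.02 over all genes. In P19 NTES7 cells 10 were higher and 0 lower than in P19 cells (median 0.45, against 0.02 over all genes), and 2 were higher and 10 lower than in R1 cells (median -0.48, against 0.01). Most of these levels were low, as 8 of the 18 were below the array median in P19 NTES7 cells, 13 in P19 cells and 6 in R1 cells, and 5 were below it in all lines. The sum of the fibroblast markers had the same order of lines, and its part was not tested.

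**Figure D3:**
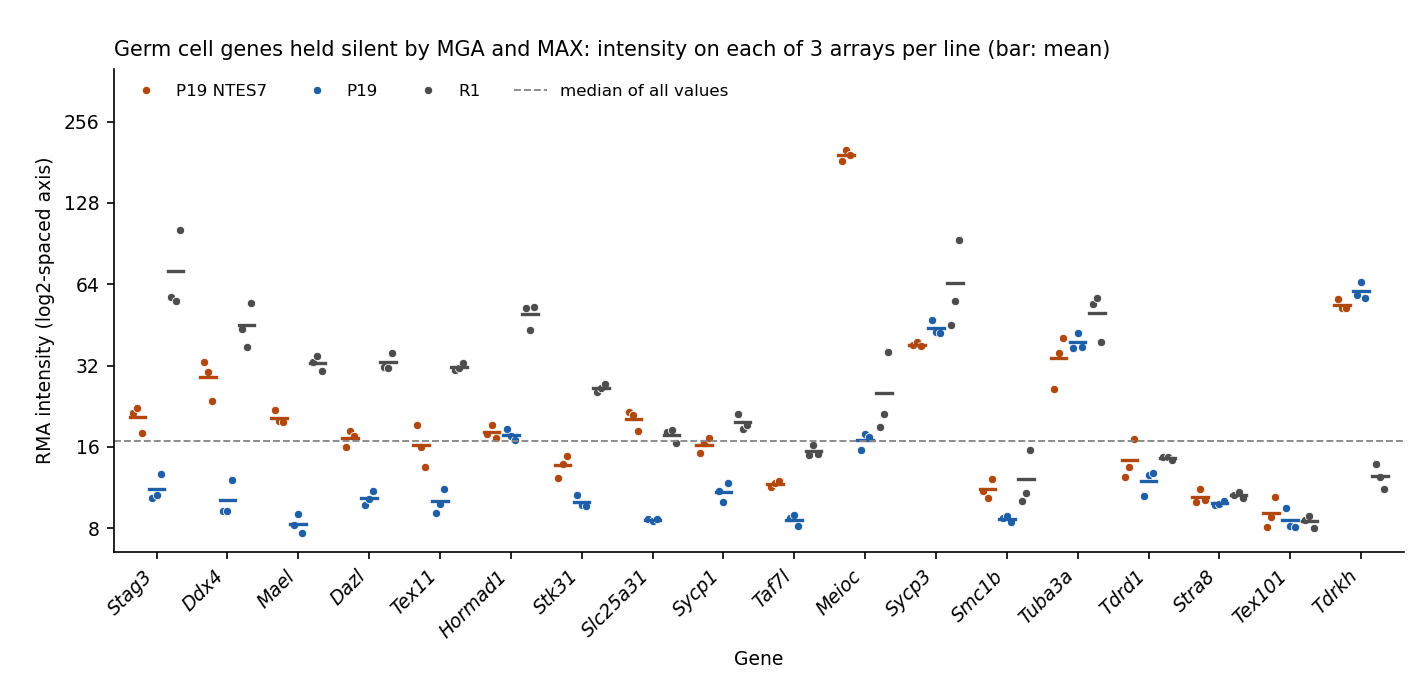
RMA intensity (log2-spaced axis) of 18 germ cell genes on the 3 arrays of P19 NTES7, P19 and R1 cells, ordered by the difference of P19 from R1, with a bar at each mean and a dashed line at the array median of 16.9. From Stag3 to Taf7l the P19 points lie near or under the dashed line and the R1 points above those of P19, while Meioc is high in P19 NTES7 cells alone and Tdrkh is low in R1 cells alone.

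Stag3, a cohesin subunit of meiosis, had 21.4, 22.2 and 18.1 in P19 NTES7 cells, 10.3, 10.6 and 12.7 in P19 cells and 57.3, 55.6 and 101.5 in R1 cells. It was 6.17-fold lower in P19 than in R1 cells (log2 difference -2.62, limma adjusted p = 1.6e-07) and lower by 1.74 in P19 NTES7 than in R1 cells. Ddx4, the VASA helicase of germ cells, had 32.9, 30.2 and 23.6 in P19 NTES7 cells, 9.29, 9.23 and 12.1 in P19 cells and 43.8, 37.3 and 54.3 in R1 cells. It was 4.41-fold lower in P19 than in R1 cells (-2.14, limma adjusted p = 2.18e-07) and 2.83-fold higher in P19 NTES7 than in P19 cells (1.5, limma adjusted p = 2.07e-05). For both genes P19 NTES7 cells lay between P19 and R1 cells with no overlap, and as P19 cells were under the array median these folds may be understated.

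Hormad1, a protein of the meiotic chromosome axis, stayed at the P19 level in P19 NTES7 cells, with 17.8, 19.3 and 17.2 in P19 NTES7 cells, 18.6, 17.5 and 17.03 in P19 cells and 52.4, 43.3 and 52.9 in R1 cells. Meioc, which keeps germ cells in meiosis, was high in P19 NTES7 cells alone. It had 182.8, 200.2 and 193.3 in P19 NTES7 cells, 15.5, 17.9 and 17.5 in P19 cells and 19.02, 21.1 and 36.0 in R1 cells, and was 11.3-fold higher in P19 NTES7 than in P19 cells (3.50, limma adjusted p = 3.06e-08) and 7.88-fold higher than in R1 cells (2.98, limma adjusted p = 5.98e-08), where most of the list was lower. Tdrkh, a Tudor-domain protein of the piRNA pathway, had 56.4, 52.4 and 52.2 in P19 NTES7 cells, 58.3, 65.1 and 57.1 in P19 cells and 13.8, 12.3 and 11.2 in R1 cells. It was 4.32-fold higher in P19 NTES7 than in R1 cells and 4.84-fold higher in P19 than in R1 cells.

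The germ cell genes with an E-box in a promoter window, among them Stag3, Ddx4 and Hormad1 whose sequences are printed above, were compared with those without. Of 10 genes with an E-box, 8 were lower and 0 higher in P19 than in R1 cells, with a median log2 difference of -1.22. Of 7 genes with a window but no E-box, 3 were lower and 1 was higher, with a median of -0.34. In P19 NTES7 minus P19, 7 of the 10 and 2 of the 7 were higher. Of the 18 genes of the list, 17 had a window, and the gene without one is in neither group. Smc1b, Tex101 and Stra8, without an E-box, were below the array median in all lines, where differences may be understated. So were Taf7l and Tdrd1 among the genes with an E-box. The difference between these groups of genes was not tested.

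The MYC-activated genes, like all genes, differed in both directions. Of 39 measured, 7 were higher and 7 lower in P19 than in R1 cells (median log2 difference 0.02). This is near the shares of all genes, 19.4% higher and 15.2% lower. In P19 NTES7 minus R1 there were 3 higher and 10 lower (median -0.07), where 14.1% of all genes were higher and 13.4% lower. In P19 NTES7 minus P19 there were 2 higher and 6 lower (median -0.13), where 8.33% of all genes were higher and 12% lower.

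**Figure D4:**
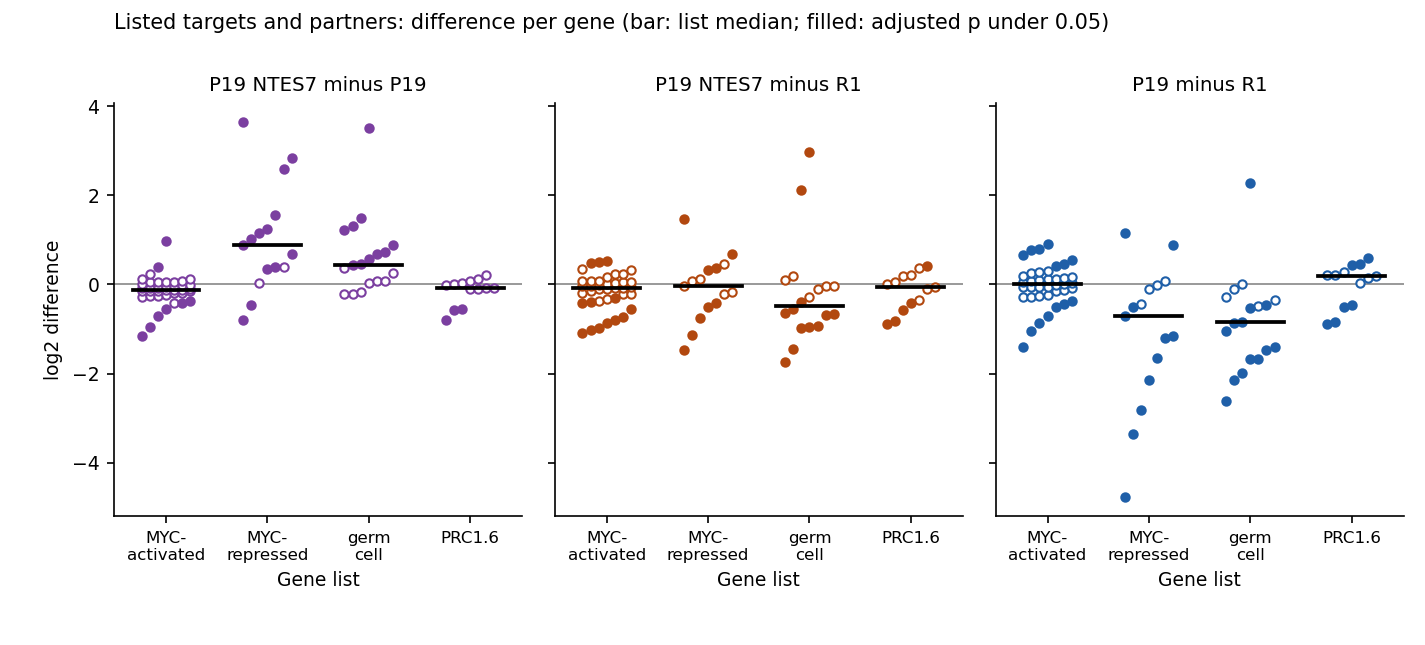
Log2 difference of each gene (y axis) in the lists of MYC-activated genes, MYC-repressed genes, germ cell genes and PRC1.6 partners in the 3 comparisons, with a bar at the list median and filled points for genes that passed the test. The MYC-activated genes center near 0 in all comparisons, and the medians of the MYC-repressed and germ cell lists lie above 0 in P19 NTES7 minus P19 and below it in P19 minus R1.

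Ccnd2, the D-type cyclin that MYC induces, had the order of Myc, with 140.1, 117.0 and 112.9 in P19 NTES7 cells, 92.2, 93.4 and 97.0 in P19 cells and 238.8, 243.4 and 260.8 in R1 cells. It was lower by 1.39 in P19 than in R1 cells and by 1.01 in P19 NTES7 than in R1 cells, and higher by 0.38 in P19 NTES7 than in P19 cells (limma adjusted p = 1.72e-07, 7.51e-06 and 0.0181). The last of these did not pass without P19 NTES7 replicate 1 (0.058), P19 replicate 1 (0.0653) or P19 replicate 2 (0.0648). Tfrc, the transferrin receptor, was at 1475, 1438 and 1371 in P19 NTES7 cells, 664.8, 648.9 and 888.5 in P19 cells and 1515, 1552 and 1439 in R1 cells, a log2 difference of 0.97 in P19 NTES7 minus P19 and of -1.05 in P19 minus R1. Others had a different order of lines. Bcat1, an enzyme of branched-chain amino acids, had 183.1, 155.5 and 143.3 in P19 NTES7 cells, 337.8, 359.8 and 370.9 in P19 cells and 361.7, 352.8 and 310.4 in R1 cells (log2 difference -1.16 in P19 NTES7 minus P19 and -1.09 in P19 NTES7 minus R1). The amino acid transporter Slc7a5 was higher in P19 than in R1 cells by 0.91, while P19 NTES7 cells had less of it than P19 cells (log2 difference -0.96), and the mitochondrial serine enzyme Shmt2 was higher in P19 than in R1 cells by 0.79. In the nucleolus, Mybbp1a (0.53) and Tcof1 (0.49) were higher in P19 NTES7 than in R1 cells, Tcof1 not without P19 NTES7 replicate 1 (limma adjusted p = 0.0987) or R1 replicate 3 (0.0752).

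In P19 NTES7 minus P19, 11 of 15 measured genes that MYC represses were higher and 2 lower (median log2 difference 0.90), and 2 were higher and 9 lower in P19 than in R1 cells (median -0.70). Against R1 cells, 4 were higher and 5 lower in P19 NTES7 cells (median -0.04). The list holds genes that fibroblasts make in large amounts. Thbs1, the matrix protein thrombospondin, had 231.9, 209.3 and 176.5 in P19 NTES7 cells, 17.9, 16.3 and 14.9 in P19 cells and 470.6, 462.1 and 411.1 in R1 cells, and the collagen gene Col1a2 was higher by 2.84 in P19 NTES7 than in P19 cells. Of the fibroblast list, 18 of 24 genes were higher and 1 was lower in P19 NTES7 than in P19 cells, and 1 was higher and 21 were lower in P19 than in R1 cells. Without Col1a1 and Col1a2, which both lists hold, 9 of 13 MYC-repressed genes were higher in P19 NTES7 than in P19 cells and 7 lower in P19 than in R1 cells. The part of fibroblast RNA in the others was not tested.

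The cell cycle and stress genes of that list also differed in direction. Cdkn1b, the CDK inhibitor p27, had 70.8, 68.4 and 82.2 in P19 NTES7 cells, 80.2, 102.7 and 127.4 in P19 cells and 40.2, 47.3 and 49.4 in R1 cells. It was 1.16 higher on the log2 scale in P19 than in R1 cells (limma adjusted p = 4.17e-05) and 0.70 higher in P19 NTES7 than in R1 cells (limma adjusted p = 0.00379). Gadd45a, a growth arrest gene, was lower in P19 NTES7 than in R1 cells by 1.46 (limma adjusted p = 6.87e-08). Ndrg1 had 523.9, 392.0 and 455.2 in P19 NTES7 cells, above all arrays of both other lines, and was higher by 1.47 in P19 NTES7 than in R1 cells (limma adjusted p = 0.0118, and 0.0516 without P19 NTES7 replicate 1). Ndrg2 was lower in P19 NTES7 than in P19 cells by 0.81 (not without P19 NTES7 replicate 2, limma adjusted p = 0.0576) and higher in P19 than in R1 cells by 0.89.

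Signals that act on Myc transcription were measured by 13 genes. In P19 NTES7 cells 6 were higher and 4 lower than in P19 cells and 4 higher and 1 lower than in R1 cells, and in P19 cells 5 were higher and 5 lower than in R1 cells. The WNT feedback gene Axin2 had 63.2, 56.1 and 66.8 in P19 NTES7 cells, 14.1, 15.5 and 18.0 in P19 cells and 40.3, 46.4 and 35.0 in R1 cells, a log2 difference of 1.97 in P19 NTES7 minus P19 (limma adjusted p = 1.87e-07). The growth factor response gene Egr1 had 79.5, 61.9 and 63.5 in P19 NTES7 cells and 19.1, 17.3 and 20.2 in P19 cells, a log2 difference of 1.85 (limma adjusted p = 4.27e-07). Lef1, a WNT transcription factor, followed the order of Myc, with 181.4, 135.5 and 136.7 in P19 NTES7 cells, 85.3, 84.8 and 84.3 in P19 cells and 244.2, 242.5 and 223.2 in R1 cells. Stat3, which carries the LIF signal, was higher than in R1 cells in P19 NTES7 cells by 0.80 (limma adjusted p = 1.51e-05), and its receptor chain Lifr was higher in P19 than in R1 cells by 0.62. Il6st and Jak1 of the same pathway, named outside the rule, went the other way. Il6st averaged 181.4 in P19 and 251.8 in R1 cells, and Jak1 126.1 in P19 and 173.2 in R1 cells. Both passed as lower in P19 than in R1 cells, also in 17 other settings. The WNT factors Tcf7l1 and Tcf7l2 were lower in P19 NTES7 than in P19 cells by 0.55 and 0.49. Both calls were lost without P19 NTES7 replicate 2 (limma adjusted p = 0.0679 and 0.0736), P19 NTES7 replicate 3 (0.0642 and 0.0611) or P19 replicate 2 (0.063 and 0.0554), and that of Tcf7l2 without P19 replicate 1 as well (0.0729).

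The genes most like each MYC gene were sought over the 9 arrays, among 1874 genes whose line means span at least 1 on the log2 scale. The arrays share 3 lines, so these values describe the pattern and carry no p. For Myc they were the small nucleolar RNA gene Snora73b (Pearson's r = 0.961), the glutathione peroxidase Gpx1 (0.949) and the ERK phosphatase Dusp6 (0.948), which averaged 107 in P19 NTES7 cells, 95.3 in P19 cells and 269 in R1 cells. For Mycn they were the zinc finger genes Zbtb8a (0.975) and Zscan10 (0.973) and the nuclear factor Nfib (0.97). Zscan10, a factor of ES cells, averaged 80.2 in P19 NTES7 cells, 104 in P19 cells and 213 in R1 cells. For Mycl they were the retinaldehyde reductase Dhrs3 (0.98), the lymphocyte adhesion gene Cd2 (0.975) and AW551984 (0.972), and Dhrs3 averaged 40.6 in P19 NTES7 cells, 18.9 in P19 cells and 10.8 in R1 cells.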

How the data were processed

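RNA of P19 NTES7, P19 and R1 cells (3 samples each) was hybridized to Affymetrix Gene 1.0 ST arrays. The authors summarized probe sets with RMA and deposited linear intensity values, of which 9 columns were used (0 belonged to no sample). Array medians were 16.5 to 17.5, so a scaling to the median named in the methods is not in these values. No source used here gives a genome build for the array data, while the promoter windows are on GRCm38.p6. The labels name the nuclear transfer line only as derived from P19, and it was taken as P19 NTES7 from the study. Of 28853 probe sets, 21789 had 1 gene symbol, 1621 several and 5443 none. A gene was measured by its brightest probe set. Ppan, Cdkn1a and Tcf7 were not analysed here, and 13 of 14 entries of the cofactor list and 12 of 13 of the stability list were measured. Log2 values were fitted with limma 3.58.1 (R 4.3.3), checked on simulated data. Counting depth does not apply to arrays, and the number of arrays limits the precision. Members, gene lists and tests were chosen with earlier results of these data known. All members are named, and of each other list up to 4 genes per comparison (the 2 largest rises and 2 largest falls past the test). Some genes outside this rule are also named, among them Pcgf6, Il6st and Jak1. Alternatives were array centring, quantile normalization, a pseudocount of 16, a filter on dim probe sets, fits of 2 lines, an intensity trend, a replicate block, all probe sets of a gene, the methods' analysis of variance, leaving out each array and, added after seeing the data, averaging R1 replicates 1 and 2.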

Additional observations from a re-analysis of the deposited data

How the results depend on the processing

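The settings other than leaving out an array include fits of 2 lines, which use the arrays of those lines only. Over the members, 257 log2 differences under these settings stayed on the same side of the test with the same direction. A further 6 came to pass it and 4 no longer passed. With R1 replicates 1 and 2 averaged as 1 array, 2 members passed in P19 NTES7 minus R1 (Mycn and Mycl), since the adjusted p of Myc was 0.0605 and that of Mxd3 0.0943, and Mycl did not pass in P19 minus R1 (0.061). With each array centred on its median, Mnt did not pass in P19 NTES7 minus P19 (0.0556) and Mycn made 1 member past the limits of the study in P19 NTES7 minus R1. The methods' one-way analysis of variance put 1 member, Myc, past the limits in P19 minus R1, and 0 after Benjamini-Hochberg. Mga passed in P19 NTES7 minus R1 with an intensity trend (0.0455), Mnt passed there in 3 settings, and Max passed in P19 minus R1 after quantile normalization (0.0472). Mxd3 could not be tested with the filter on dim probe sets.

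Leaving out 1 array at a time gave 1 to 3 members past the test in P19 NTES7 minus P19, 2 to 5 in P19 NTES7 minus R1 and 3 to 5 in P19 minus R1. The lowest counts came without P19 NTES7 replicate 1 in the first, without P19 NTES7 replicate 1, R1 replicate 1 or R1 replicate 2 in the second and without P19 replicate 2 in the third. Past the limits of the study were 0 to 2 in P19 NTES7 minus R1 (Mycn and Mycl without R1 replicate 3) and 1 in P19 minus R1. Small differences that had not passed turned direction, for Max in P19 NTES7 minus P19 (-0.032 to 0.28), Mxd1 in P19 NTES7 minus R1 (-0.071 to 0.036) and Mxi1 in P19 minus R1 (-0.026 to 0.18). Passes over all lists numbered 251 in the 3 comparisons and 223 to 258 with an array left out. Under the settings other than leaving out an array, 40 of 594 counts of a list moved by over 1.5 times. The cause of these shifts was not tested.

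The replicate numbers did not pair the lines, as 9 correlations of deviations between arrays of the same number ran between -0.22 and 0.04. With the number as a replicate block, 4, 4 and 5 members passed in the 3 comparisons, Myc being added in P19 NTES7 minus P19 (0.0447), and the lists had 242 passes in all, against 251.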
